A study of Mus musculus with 24 samples.

Results

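Liver transcripts of mice were compared between CT06 and CT12, the middle and the end of the subjective day, 6 h apart. In the usual convention for circadian time (CT), CT00 marks when the lights used to come on and CT12 when they used to go off, which is when a mouse becomes active. The comparison was defined by the sample titles alone: the 3 arrays titled CT12 were set against the 3 arrays titled CT06, 6 of 24 arrays in all, for each of 19935 genes. The series holds 8 circadian times from CT00 to CT21, each with 3 Affymetrix Mouse Gene 1.0 ST arrays, and the spread was taken from all 24. Both groups are livers of adult male C57BL/6 mice, a wild-type strain with no allele or agent added. Before sampling, the mice had lived for 4 weeks in cycles of 12 h of light and 12 h of dim red light. All groups were then kept in dim red light throughout, with food always present, and livers were taken on the second cycle under these conditions. Per the labels, RNA of each liver was extracted and hybridised separately, so the 3 arrays of a time stand for 3 animals. The labels also speak of 4 mice per time, and only 3 arrays per time were analysed here. No batch is given in the labels.

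The circadian clock of liver cells is a feedback loop of transcription. CLOCK and BMAL1 (encoded by Arntl) bind E-boxes and drive the genes of their own repressors, among them the PER, CRY and CIART proteins. They also drive Nr1d1, whose product REV-ERB alpha represses Arntl through ROR elements, and the PAR bZIP factors DBP, TEF and HLF, which bind D-boxes. In the liver this loop, together with feeding, hormones and body temperature, gives many metabolic genes a daily rhythm.

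Values are on a log2 scale, with the median of the 24 arrays set to 0 for every gene, so they show differences between times and not the level of a gene, and levels of different genes cannot be compared. A gene was called higher or lower at CT12 where limma's moderated test gave a Benjamini-Hochberg adjusted p under 0.05 over all 19935 genes. By this rule 554 genes (2.78%) were called, 247 (1.24%) higher and 307 (1.54%) lower at CT12. The share is over bright and dim genes together. The step to which values were rounded marks 2349 genes with higher values before centring, the upper class of rounding steps. Of these, 183 were among the 554 called. Without adjustment, 2364 genes had a p under 0.05. The median size of the called differences was 0.43 on the log2 scale, or 1.35-fold, and the median difference of all genes was -0.01. Changes of at least 1.5-fold were called for 79 genes that were higher and 62 that were lower, and changes of at least 2-fold for 21 and 10. The 3 arrays of one time all lay above the 3 of the other in 246 of the 247 higher and 306 of the 307 lower genes, against 3512 (17.6%) of all genes tested. The genes were called on these same arrays, so this separation is largely fixed by the call and adds no support.

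The number of calls depended on single arrays. Leaving out 1 of the 6 arrays in turn gave 156, 104 and 219 higher genes without CT06 replicates 1, 2 and 3, and 140, 139 and 199 without CT12 replicates 1, 2 and 3. The corresponding counts of lower genes were 236, 169, 238, 188, 189 and 221. In all 6 of these fits, 216 of the 554 genes kept their call (86 higher and 130 lower), and no gene changed sign (0 of 554). The CT12 arrays correlated with each other over all genes at r = 0.49 to 0.52. CT06 replicate 3 was less like its own group: it correlated at 0.21 and 0.24 with the other CT06 arrays and at 0.12 to 0.26 with the CT12 arrays, whereas the other CT06 arrays correlated with each other at 0.32. These correlations are over genes, which are not independent replicates.

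Of the transcripts that rose, Lpin1 rose the most. It encodes a phosphatidate phosphatase of triglyceride synthesis that also acts as a coactivator of transcription. Its values were -0.37, -0.12 and -0.26 at CT06 and 2.04, 1.67 and 1.38 at CT12, a difference of 1.94 ± 0.24 (SE; 3.85-fold, adjusted p = 4.87e-05). The groups were far apart, and the CT12 livers spread more than the CT06 livers. Of the transcripts that fell, Elovl3 fell the most. It encodes an elongase of very long chain fatty acids, with values of 0.10, 0.66 and 0.04 at CT06 and -1.75, -1.72 and -1.82 at CT12. Its fall of 2.03 ± 0.17 on the log2 scale (SE; 4.08-fold, adjusted p = 2.24e-07) was much larger than the spread of either group. The smallest adjusted p belonged to Coq8a, which encodes a kinase-like protein of coenzyme Q synthesis. Its arrays read 0.18, 0.16 and 0.08 at CT06 and -1.03, -1.02 and -1.04 at CT12 (2.25-fold lower, adjusted p = 7.90e-11).

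**Figure D1:**
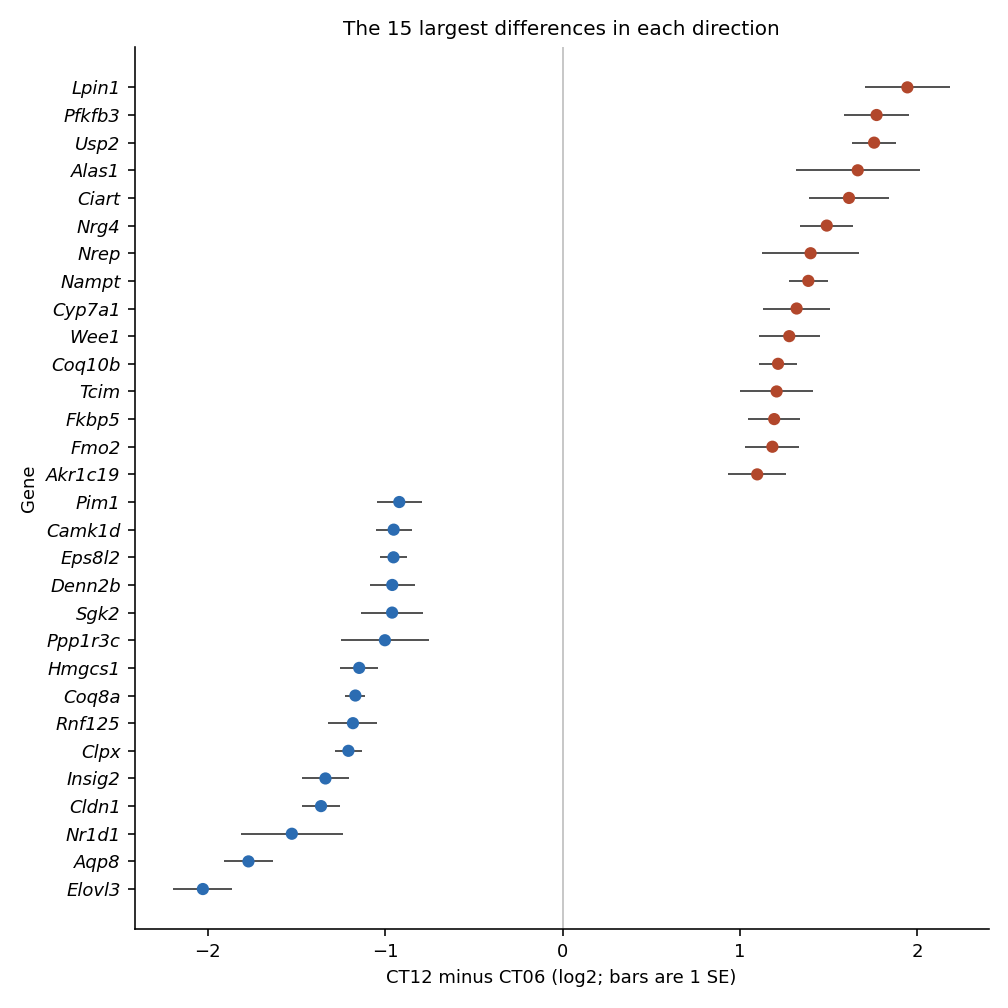
Difference CT12 minus CT06 (x axis, log2) of the 15 genes with the largest rises and the 15 with the largest falls among the called genes (y axis), each point from 3 arrays per time and each bar 1 standard error of the limma fit. The points run from 1.94 for Lpin1 to -2.03 for Elovl3, and the standard errors of Alas1 (0.35), Nr1d1 (0.29) and Nrep (0.27) are the widest.

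The other large rises are given gene by gene, here or with their lists. Pfkfb3, whose product makes the activator of phosphofructokinase, went from -0.26, -0.31 and -0.08 to 1.75, 1.5 and 1.40 (3.41-fold, adjusted p = 6.42e-06). Nampt, the rate-limiting enzyme of NAD salvage, was -0.47, -0.53 and -0.30 at CT06 and 0.97, 0.94 and 0.94 at CT12 (2.61-fold, adjusted p = 2.24e-07). Nrg4, a secreted ligand of ERBB receptors, was -0.47, -0.20 and 0.04 against 1.33, 1.09 and 1.41 (2.81-fold, adjusted p = 3.82e-06). For these genes the CT12 livers lay closely together and clear of CT06. Wee1, a kinase that delays entry into mitosis, read -0.39, -0.71 and -0.02 at CT06 and 0.88, 0.80 and 1.03 at CT12 (2.42-fold, adjusted p = 0.000125). Alas1, the first enzyme of heme synthesis, rose 3.17-fold (adjusted p = 0.00912) from values of -1.47, -0.30 and -0.25 to 1.11, 1.22 and 0.64. Its CT06 replicate 1 lay far below the other CT06 livers. The Alas1 call was lost without that array (adjusted p = 0.0683) and without CT12 replicate 2 (adjusted p = 0.053). The list of the 15 largest rises also holds Lpin1, Usp2, Ciart and Cyp7a1, described with their lists. Differences of 1.10 to 1.40 with adjusted p from 6.32e-07 to 0.00492 were found for Nrep, Coq10b, Tcim, Fkbp5, Fmo2 and Akr1c19, of which Coq10b encodes a coenzyme Q binding protein and Fmo2 a flavin-containing monooxygenase.

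The other large falls are given in the same way. Aqp8, a water channel, went from 0.18, 0.25 and 0.14 to -1.27, -1.67 and -1.80 (3.41-fold lower, adjusted p = 2.07e-07). Cldn1, a tight junction protein, went from -0.11, 0.07 and 0.10 to -1.42, -1.08 and -1.53 (2.57-fold lower, adjusted p = 2.07e-07). In both genes, called on these same livers, every CT12 liver lay far below the lowest CT06 liver. Clpx, the ATPase subunit of a mitochondrial protease, read 0.11, 0.19 and 0.24 at CT06 and -1.06, -0.84 and -1.18 at CT12 (2.31-fold lower, adjusted p = 1.05e-08). Rnf125, a ubiquitin ligase, fell by 1.18 on the log2 scale (adjusted p = 3.01e-05). The kinase genes Sgk2, Camk1d and Pim1 had differences of -0.96, -0.95 and -0.92, and Pim1 read 0.81, 0.81 and 0.66 at CT06 against -0.20, -0.09 and -0.20 at CT12. Denn2b and Eps8l2, with differences of -0.96 and -0.95, completed the 15 largest falls together with Nr1d1, Insig2, Hmgcs1 and Ppp1r3c, described with their groups.

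The 3 period genes rose while the genes of both activators fell. In the list of clock repressors, 4 of 10 tested genes were called higher and 1 lower (50% called, against 2.78% of all genes). The median difference of the list was 0.34, against -0.01 over all genes. Per1 read -0.18, -0.01 and 0.02 at CT06 and 1.17, 0.78 and 1.08 at CT12 (2.09-fold, adjusted p = 6.23e-05). Per2 was -0.52, -0.24 and -0.65 against 0.33, 0.47 and 0.13 (1.72-fold, adjusted p = 0.000778). Per3 was -0.04, -0.17 and 0.04 against 0.77, 0.27 and 0.73 (1.56-fold, adjusted p = 0.0192). As in 246 of the 247 higher genes, the groups of the 3 period genes did not overlap, which the call largely fixes. CT12 replicate 2 was the lowest of its group for Per1 and Per3. The Per3 call was lost without CT06 replicate 1 or 2 or CT12 replicate 1 or 3 (adjusted p = 0.0535, 0.106, 0.109 and 0.0916). Ciart, which encodes a repressor of CLOCK and BMAL1, had the largest rise of the list. Its values were 0.06, -0.08 and 0.23 at CT06 and 1.76, 1.39 and 1.90 at CT12 (3.06-fold, adjusted p = 0.000173).

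Nr1d1 was the repressor that fell, from 1.72, 1.57 and 1.88 at CT06 to 0.22, 0.00 and 0.36 at CT12 (2.88-fold lower, adjusted p = 0.00381). Its relative Nr1d2 had a difference of 0.23 ± 0.25 (SE, adjusted p = 0.885), with overlapping groups of 0.50, 0.43 and 0.76 against 0.88, 0.52 and 0.99. The cryptochrome gene Cry1 was at -0.69, -0.45 and -0.84 at CT06 and -0.43, -0.08 and -0.55 at CT12 (difference 0.30 ± 0.12, SE, adjusted p = 0.270), and Cry2 had a difference of 0.07 (adjusted p = 0.920). The basic helix-loop-helix repressors Bhlhe40 and Bhlhe41 had differences of 0.37 and -0.16, with overlapping groups (adjusted p = 0.531 and 0.802). None of these 5 passed the test, which does not show that they were level.

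Of the PAR bZIP factors, 1 of 3 was called (33.3%, against 2.78% of all genes). Tef read -0.01, 0.01 and 0.07 at CT06 and 0.64, 0.45 and 0.65 at CT12 (1.48-fold, adjusted p = 0.00302). After quantile normalization the Tef call was lost, so the list then had 0 calls. Dbp was 0.77, 0.72 and 1.04 against 1.31, 1.12 and 1.61. Its groups did not overlap, as in 17.6% of all genes tested, and the difference of 0.50 ± 0.29 (SE) did not pass (adjusted p = 0.563). Hlf had a difference of 0.23 (adjusted p = 0.176).

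In the list of clock activators and genes with ROR elements, 2 of 6 tested genes fell (33.3% called, against 2.78% of all genes). Arntl was at -0.45, -0.47 and -0.66 at CT06 and at -1.60, -0.97 and -1.69 at CT12 (1.85-fold lower, adjusted p = 0.000238), and CT12 replicate 2 again lay nearest to CT06. Clock was at -0.01, 0.01 and 0.05 against -0.60, -0.48 and -0.67 (1.52-fold lower, adjusted p = 3.45e-05). The differences of Arntl2, Rora, Rorb and Nfil3 lay between -0.10 and 0.01, with adjusted p from 0.698 to 0.995. Of 14 proteins that modify clock proteins, 2 were called higher and 1 lower (21.4% called). Usp2, a deubiquitinating enzyme, was -0.59, -0.57 and -0.32 at CT06 and 1.24, 1.08 and 1.47 at CT12 (3.38-fold, adjusted p = 5.20e-08). Sfpq rose 1.34-fold (adjusted p = 0.0320) and Btrc, part of a ubiquitin ligase for PER proteins, fell 1.19-fold (adjusted p = 0.0416). The Sfpq and Btrc calls were both lost without CT06 replicate 2 or 3 or CT12 replicate 1 or 2 (adjusted p = 0.179, 0.108, 0.174 and 0.145 for Sfpq, and 0.240, 0.157, 0.162 and 0.216 for Btrc).

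**Figure D2:**
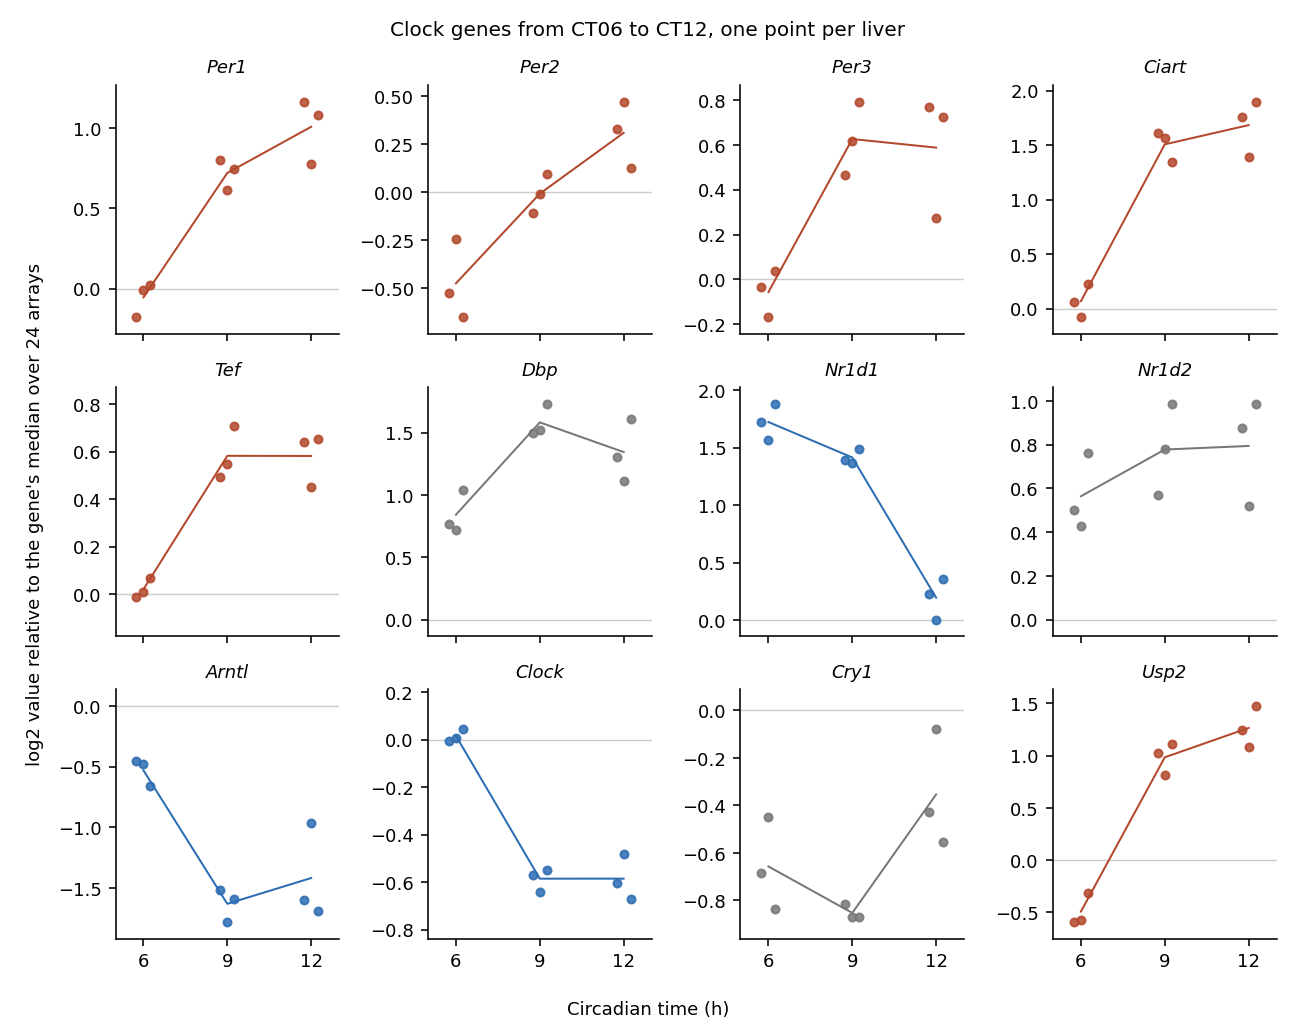
Values of 12 clock genes in the 3 livers at CT06, CT09 and CT12 (x axis, circadian time in h; y axis, log2 value relative to the median of the gene, with its own range in each panel); points are livers, lines join the means, and red, blue and grey mark genes called higher, called lower and not called at CT12 against CT06. Ciart, Tef and Per3 are already up at CT09 and Arntl and Clock already down, whereas Nr1d1 falls mainly after CT09.

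The sequences before the start sites of clock genes and of the genes with the largest differences were searched for the elements that these factors are known to bind. RefSeq promoters of GRCm38.p6, 250 bases before to 50 bases after each start site, were matched by symbol for 17 of 19 clock genes, for 23 of the 30 genes with the largest differences and for 15612 of all genes tested. The motifs were the E-box CACGTG, the E-prime-box CACGTT, the D-boxes TTATGTAA and TTACGTAA, the ROR element TAGGTCA and the cAMP response elements TGACGTCA and TGACGTAA, each on both strands. No motif contains another. An E-box was present in 9.50% of all these genes, in 44 of 203 genes called higher with a promoter (21.7%) and in 33 of 251 called lower (13.1%). The D-box TTATGTAA was present in 0.999% of all genes, 7 of the higher genes (3.4%) and 0 of the lower. TTACGTAA was present in 0.167% of all genes, 2 of the higher and 0 of the lower. The ROR element was present in 2.63% of all genes, 4 of the higher (2%) and 13 of the lower (5.2%). The E-prime-box stood at 5.67% of all, 5.9% of the higher and 5.6% of the lower genes. The cAMP response elements TGACGTCA and TGACGTAA were present in 2.72% and 0.685% of all genes, in 5 and 3 of the higher and in 5 and 0 of the lower genes. These shares are descriptions without a test, and a match does not show binding.

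The following stretches show some of the matches, in clock genes that were called and in examples of a large rise and a large fall, written 5′ to 3′ on the strand of the gene, with the match in capitals and its first base counted from the start site. Per1 has an E-box at -166 (chr11:69098753-69098818, plus strand), Ciart has E-boxes at -116 (chr3:95882309-95882374, minus strand) and at -58 (chr3:95882251-95882316, minus strand), and the lower-case cacgtg in the latter stretch is a further match. Tef has an E-box at -127 before one start site (chr15:81802516-81802581, plus strand) and another at -138 before a second one. Per3 has D-boxes at -205 (chr4:151044833-151044900, minus strand) and -158 (chr4:151044786-151044853, minus strand). Coq10b, which rose 2.32-fold, has an E-box at -78 (chr1:55052662-55052727, plus strand) and, read on the other strand, a D-box at -162 (chr1:55052578-55052645, plus strand). Matches not printed here stood before further called genes, with E-boxes in Pfkfb3 (-53), Fkbp5 (-169), Pim1 (-58) and Ppp1r3c (-104) and E-prime-boxes in Nrg4, Fmo2, Clpx, Denn2b and Ppp1r3c. They also stood before clock genes that were not called, with E-boxes in Cry1 (-60) and Bhlhe41 (-153) and E-prime-boxes in Cry1, Cry2 and Rorb. Hlf had a cAMP response element and Nfil3 a ROR element, and neither gene was called. For the called clock genes Per2, Arntl and Clock no match wholly before a start site was listed. Since 17 of 19 clock genes had a promoter sequence, a gene without a listed match may lack the motif or the sequence. Promoters of a single chromosome were left out of the listed matches, though not of the shares above. Among genes that fell, those printed are the E-box of Aqp8 at -75 (chr7:123462189-123462254, plus strand) and the E-prime-box of Nr1d1 at -28, read on the other strand (chr11:98775378-98775435, minus strand).
Per1 E-box: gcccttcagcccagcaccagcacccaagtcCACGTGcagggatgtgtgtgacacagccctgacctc
Ciart E-box, far: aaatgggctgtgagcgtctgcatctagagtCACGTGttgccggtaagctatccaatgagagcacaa
Ciart E-box, near: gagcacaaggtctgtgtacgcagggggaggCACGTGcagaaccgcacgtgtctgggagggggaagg
Tef E-box: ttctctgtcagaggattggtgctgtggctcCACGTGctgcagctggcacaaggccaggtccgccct
Per3 D-box, far: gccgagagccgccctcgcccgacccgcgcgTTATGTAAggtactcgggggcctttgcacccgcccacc
Per3 D-box, near: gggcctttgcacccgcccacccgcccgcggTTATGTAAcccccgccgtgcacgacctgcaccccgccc
Coq10b E-box: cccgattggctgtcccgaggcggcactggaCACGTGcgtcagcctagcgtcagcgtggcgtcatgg
Coq10b D-box: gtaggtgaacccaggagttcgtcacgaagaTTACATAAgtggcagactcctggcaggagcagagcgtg
Aqp8 E-box: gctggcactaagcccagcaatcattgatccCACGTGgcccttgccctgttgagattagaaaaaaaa
Nr1d1 E-prime-box: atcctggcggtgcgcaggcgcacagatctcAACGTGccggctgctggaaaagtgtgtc

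The called genes of cholesterol synthesis and uptake all fell. Of 22 tested, 7 were called lower and 0 higher (31.8% called, against 2.78% of all genes). The median difference was -0.35, and 21 of the 22 differences were negative. Hmgcs1, which makes the substrate of HMG-CoA reductase, was at 0.48, 0.54 and 0.43 at CT06 and at -0.52, -0.71 and -0.74 at CT12 (2.21-fold lower, adjusted p = 1.43e-06). Insig2, which holds the SCAP and SREBP complex in the endoplasmic reticulum, was at 0.06, 0.12 and 0.48 against -1.32, -1.04 and -0.99 (2.53-fold lower, adjusted p = 2.62e-06). Fdft1, squalene synthase, went from 0.16, 0.30 and 0.04 to -0.29, -0.35 and -0.51 (1.46-fold lower, adjusted p = 0.00118). The genes of the sensor and the factor of the pathway, Scap and Srebf2, fell by 0.47 and 0.34 on the log2 scale, and Dhcr7 and Sc5d, enzymes of late steps, by 0.48 and 0.28. The calls of Dhcr7 and Srebf2 were lost without CT06 replicate 2 (adjusted p = 0.0628 and 0.0652). The Sc5d call was lost without CT06 replicate 1 or 2 or CT12 replicate 2 or 3 (adjusted p = 0.0805, 0.135, 0.0708 and 0.160). Without CT06 replicate 2 the list had 4 calls, and without each other array of the comparison between 6 and 10. With array weights it had 13, and with only the 6 arrays in the fit 4.

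Bile acid genes split. Cyp7a1, the rate-limiting enzyme of bile acid synthesis, rose from -0.73, -0.69 and -0.55 at CT06 to 0.55, 0.84 and 0.60 at CT12 (2.50-fold, adjusted p = 0.000223). Of 19 genes tested in the list of bile acids and sterol transport, it was the 1 called higher, and 4 were called lower. Together these calls were 26.3% of the list, against 2.78% of all genes. Hsd3b7, an enzyme that follows Cyp7a1 in the pathway, fell from 0.39, 0.54 and 0.53 to -0.50, -0.40 and -0.38 (1.88-fold lower, adjusted p = 2.24e-07). Cyp8b1, which directs the pathway to cholic acid, fell from 0.09, 0.25 and 0.30 to -0.87, -0.50 and -0.52 (1.79-fold lower, adjusted p = 0.00311). The peroxisomal side chain oxidase gene Acox2 and the bile salt export pump gene Abcb11 fell by 0.40 and 0.46 on the log2 scale (adjusted p = 0.00372 and 0.00174). These 5 calls were kept in each of the 6 fits that left out an array. With only the 6 arrays in the fit, Abcb11 lost its call.

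In fatty acid and triglyceride synthesis 3 of 24 tested genes rose and 3 fell (25% called, against 2.78% of all genes). The median difference was -0.15. Beside Lpin1, the genes that rose were Thrsp, a regulator of lipogenesis, and Elovl6, an elongase of long chain fatty acids. Thrsp was at -0.54, -0.54 and -0.82 at CT06 and 0.39, 0.51 and -0.09 at CT12 (1.87-fold, adjusted p = 0.00155). Elovl6 was at 0.06, -0.37 and -0.21 against 0.51, 0.86 and 0.11 (1.59-fold, adjusted p = 0.0265), so that its highest CT06 liver stood close to its lowest CT12 liver. The Elovl6 call was lost without CT06 replicate 2 or 3 or CT12 replicate 1 or 2 (adjusted p = 0.158, 0.0758, 0.0844 and 0.188). Beside Elovl3, Elovl5, an elongase of polyunsaturated fatty acids, fell from 0.59, 0.63 and 0.48 to -0.21, -0.34 and -0.22 (1.77-fold lower, adjusted p = 2.66e-05), and Agpat2, an acyltransferase of triglyceride synthesis, fell by 0.38 on the log2 scale (adjusted p = 0.00422). The elongase genes thus moved in both directions. The Agpat2 call was lost with only the 6 arrays in the fit.

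**Figure D3:**
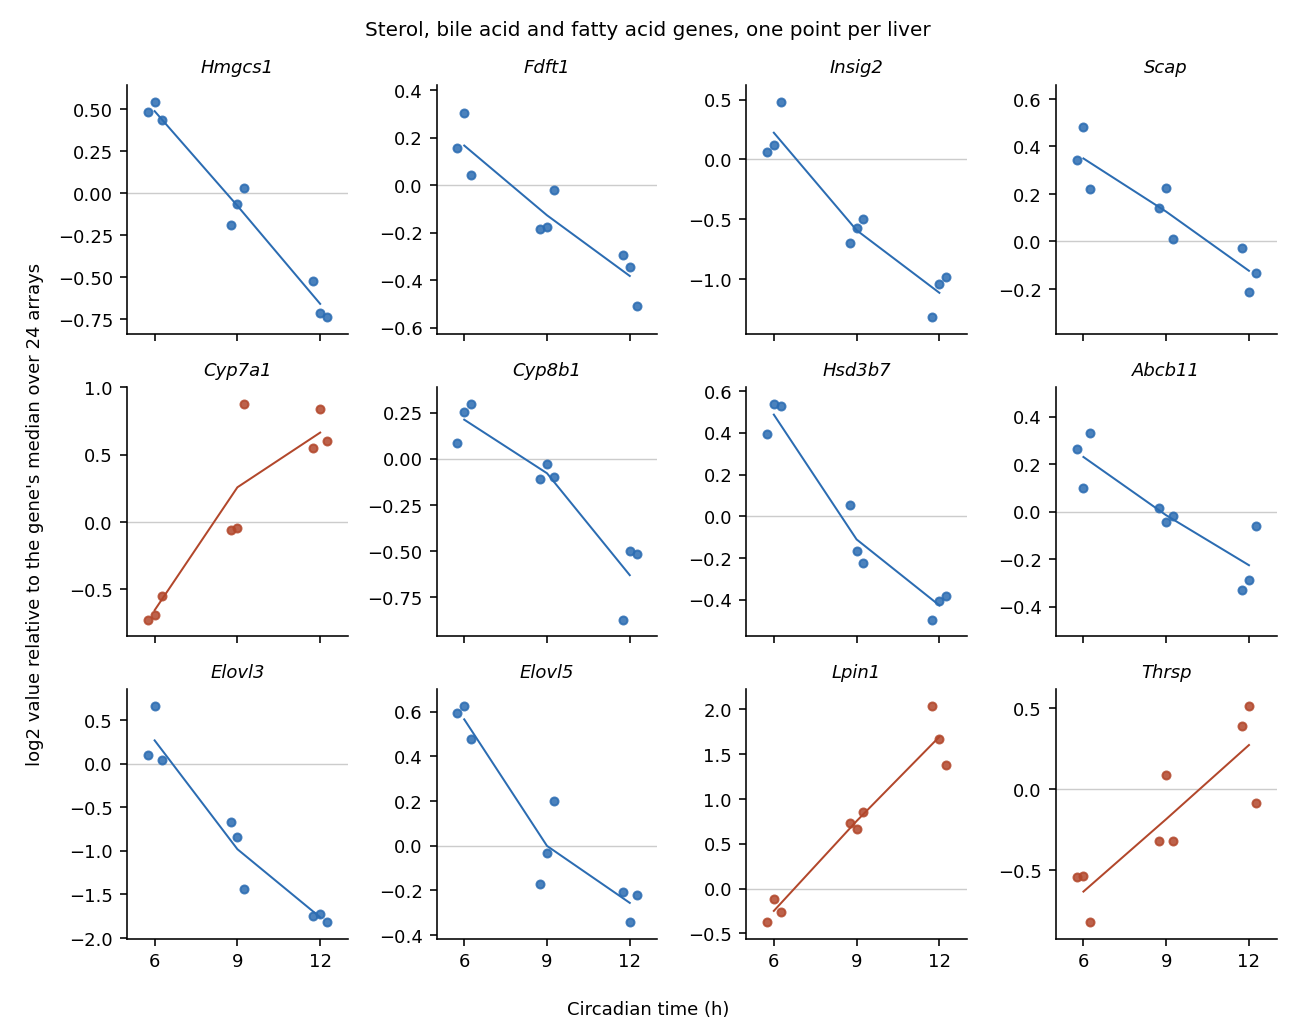
Values of 12 genes of sterol, bile acid and fatty acid metabolism in the 3 livers at CT06, CT09 and CT12 (x axis, circadian time in h; y axis, log2 value relative to the median of the gene, with its own range in each panel); points are livers, lines join the means, red marks genes called higher and blue genes called lower at CT12 against CT06. Cyp7a1, Lpin1 and Thrsp go up and the other 9 genes go down.

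Called genes of lipid storage and transport were all lower at CT12. In the list of lipid droplets and lipolysis, 3 of 16 were lower and 0 higher (18.8% called, against 2.78% of all genes). The median was -0.08. Plin2, the coat protein of lipid droplets, went from 0.04, 0.41 and 0.46 to -0.72, -0.55 and -0.27 (1.76-fold lower, adjusted p = 0.000142). Lipe, hormone-sensitive lipase, and Cideb, a lipid droplet protein, had small falls of 0.30 and 0.25 on the log2 scale. Lipe lost its call without CT06 replicate 2 or 3 or CT12 replicate 1 or 2 (adjusted p = 0.110, 0.131, 0.0629 and 0.191). Cideb lost it without any 1 array but CT12 replicate 3 (adjusted p = 0.0730 to 0.250). Of 16 lipoprotein genes 2 were lower (12.5%), the receptor gene Scarb1 (1.28-fold, adjusted p = 0.0131) and the phospholipid transfer protein gene Pltp (1.65-fold, adjusted p = 0.0233). Scarb1 lost its call without CT06 replicate 1 or 2 (adjusted p = 0.0812 for each), and Pltp without CT06 replicate 2 or 3 or CT12 replicate 1 or 3 (adjusted p = 0.117, 0.0671, 0.0813 and 0.0888). Of 14 phospholipid genes 2 were lower (14.3%), choline kinase Chka (1.67-fold, adjusted p = 0.0113) and sphingosine kinase Sphk2 (1.39-fold, adjusted p = 0.00467). Chka lost its call without CT06 replicate 2 or CT12 replicate 1 or 3 (adjusted p = 0.101, 0.0503 and 0.0826). In fatty acid oxidation and ketone body formation 1 of 25 genes was called (4%, near the 2.78% of all genes), the thioesterase gene Acot3. It rose from 0.04, -0.11 and 0.03 to 0.53, 0.99 and 1.04 (1.82-fold, adjusted p = 0.000730).

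Genes of glucose storage moved in both directions. In glycolysis and glycogen metabolism, 3 of 15 were higher and 1 lower (26.7% called, against 2.78% of all genes). Gys2, liver glycogen synthase, was at -0.29, -0.36 and 0.04 at CT06 and 0.50, 0.55 and 0.65 at CT12 (1.71-fold, adjusted p = 0.000121). The glycogen-targeting subunits of protein phosphatase went opposite ways: Ppp1r3b rose from -0.83, -0.73 and -1.01 to -0.37, 0.29 and -0.42 (1.61-fold, adjusted p = 0.0166), and Ppp1r3c fell from 0.25, -0.51 and -0.15 to -1.30, -0.95 and -1.18 (2.00-fold lower, adjusted p = 0.0309). The Ppp1r3b call was lost without CT06 replicate 3 or CT12 replicate 2 (adjusted p = 0.0761 and 0.116). The Ppp1r3c call was lost without any 1 array but CT06 replicate 2 (adjusted p = 0.0527 to 0.163). In gluconeogenesis and the insulin and cAMP response, 2 of 18 were higher (11.1% called). They were Slc37a4, the glucose-6-phosphate transporter (1.61-fold, adjusted p = 0.00304, not called with only the 6 arrays in the fit), and the transcription factor Foxo1, whose values were -0.06, -0.07 and 0.08 at CT06 and 0.45 in each of the 3 CT12 livers (1.38-fold, adjusted p = 0.00213).

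Amino acid genes moved in both directions. In the urea cycle and amino acid breakdown, 2 of 21 rose and 1 fell (14.3% called, against 2.78% of all genes). All 21 were in the upper class of rounding steps, where 183 of 2349 genes were called. Hal, histidine ammonia lyase, went from 0.29, 0.20 and 0.21 to -0.35, -0.40 and -0.13 (1.44-fold lower, adjusted p = 0.000441). The amino acid transporter gene Slc38a2 (1.61-fold, adjusted p = 0.00714) and the urea cycle gene Asl (1.25-fold, adjusted p = 0.0131) rose, and both calls were lost without CT06 replicate 2 (adjusted p = 0.0641 and 0.0739) or CT12 replicate 3 (adjusted p = 0.0508 and 0.0735). Of 14 genes of methionine, taurine and glutathione (14.3% called), the transsulfuration gene Cbs fell (1.44-fold, adjusted p = 0.00468) and Mtrr, methionine synthase reductase, rose (1.43-fold, adjusted p = 0.0236). The Mtrr call was lost without any 1 array but CT12 replicate 3 (adjusted p = 0.0605 to 0.0929).

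NAD genes moved in both directions. Of 18 tested, 2 were higher and 2 lower (22.2% called, against 2.78% of all genes). Beside Nampt, the nicotinamide riboside kinase gene Nmrk1 rose from -0.51, -0.37 and -0.21 to 0.79, 0.67 and 0.62 (2.09-fold, adjusted p = 0.000173). The mitochondrial deacylase gene Sirt5 and Qprt, an enzyme of synthesis from tryptophan, had small falls of 0.30 and 0.20 on the log2 scale. Both were lost without CT06 replicate 1 or 2 or CT12 replicate 2 (adjusted p = 0.0715, 0.170 and 0.0867 for Sirt5, and 0.0888, 0.275 and 0.145 for Qprt), Sirt5 also without CT12 replicate 3 (0.130) and Qprt also without CT12 replicate 1 (0.177). In heme and iron metabolism 2 of 17 rose (11.8% called), Alas1 and the transferrin receptor gene Tfrc (2.03-fold, adjusted p = 0.0424). The Tfrc values were -0.27, -0.70 and -0.63 against 0.04, 0.86 and 0.57, and its call was lost without any 1 array but CT12 replicate 1 (adjusted p = 0.0538 to 0.235).

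Glucocorticoid is the adrenal hormone that rises before the active phase. In the list of genes that respond to it, 2 of 13 were called, both higher at CT12 (15.4%, against 2.78% of all genes). Of the 13 differences 12 were positive, and the median was 0.21. Fkbp5, a co-chaperone of the glucocorticoid receptor, went from -0.17, -0.52 and -0.40 to 0.94, 0.93 and 0.62 (2.29-fold, adjusted p = 4.99e-05). Tsc22d3, which encodes GILZ, went from -0.45, -0.53 and -0.72 to 0.08, 0.30 and 0.23 (1.70-fold, adjusted p = 0.000347). Zbtb16 read -0.30, -0.23 and -0.77 against 0.74, 0.60 and 0.37, with an adjusted p of 0.0909. Its groups did not overlap, as in 17.6% of all genes tested. The phosphatase gene Dusp1 had a difference of 0.92 ± 0.29 (SE, adjusted p = 0.118).

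Ribosome biogenesis, the largest list, had the most genes called higher in the fit to all arrays, a rank that it lost in other fits. Of 31 tested, 10 were higher and 0 lower (32.3% called, against 2.78% of all genes). In this list 28 differences were positive, and the median was 0.28. Nop56, a core protein of small nucleolar RNA particles, went from -0.14, -0.41 and -0.38 to 0.43, 0.56 and 0.07 (1.59-fold, adjusted p = 0.00578). Nolc1, a nucleolar phosphoprotein, went from -0.43, -0.63 and -0.45 to 0.02, 0.31 and 0.01 (1.53-fold, adjusted p = 0.00659). Ftsj3, a ribosomal RNA methyltransferase, went from -0.05, -0.30 and -0.18 to 0.22, 0.33 and 0.13 (1.32-fold, adjusted p = 0.00452). The other 7 were Ncl, Wdr43, Polr1a, Rrn3, Gnl3, Nop2 and Nop14, with differences of 0.34 to 0.61, among them Polr1a, the largest subunit of RNA polymerase I, and Rrn3, its initiation factor. In Nop56, Nolc1 and Ftsj3 alike, CT06 replicate 2 was the lowest liver and CT12 replicate 2 the highest. The count of called genes fell to 5, 2 and 7 without CT06 replicates 1, 2 and 3 and to 3 and 2 without CT12 replicates 1 and 2, and was 11 without CT12 replicate 3. It was 3 without moderation of the variances and 4 with only the 6 arrays in the fit. Without CT06 replicate 2 the clock repressors and the cell cycle list had more higher genes (3 each), as they did without CT12 replicate 2 (4 each), and without moderation the cell cycle list did (4). Ftsj3 and Nop56 were called in each of the 6 fits without an array, and Ftsj3 was not called with only the 6 arrays in the fit. None of 12 ribosomal protein genes was called (0 higher and 0 lower), with differences from -0.10 to 0.17. With 2.78% of all genes called, no call among so few genes is near that share.

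Among chaperones, 3 of 21 heat shock genes were higher and 0 lower (14.3% called, against 2.78% of all genes). Hsph1, an exchange factor of HSP70 proteins, went from -0.61, -0.75 and -0.78 to -0.13, 0.45 and -0.21 (1.68-fold, adjusted p = 0.00245), and lost its call with only the 6 arrays in the fit. Chordc1 (1.53-fold, adjusted p = 0.0291) and Hspa8 (1.31-fold, adjusted p = 0.0372) lost theirs without any 1 array but CT12 replicate 3 (adjusted p = 0.0653 to 0.173 and 0.0516 to 0.240). In all 3 genes CT12 replicate 2 was the highest liver. Of 29 genes of protein folding in the endoplasmic reticulum (6.9% called), Dnajb9 (1.69-fold, adjusted p = 0.0250) and Herpud1 (1.35-fold, adjusted p = 0.0126) were higher. Dnajb9 lost its call without CT06 replicate 2 or 3 or CT12 replicate 1 or 2 (adjusted p = 0.15, 0.104, 0.0537 and 0.173), and Herpud1 without CT06 replicate 2 or 3 or CT12 replicate 3 (adjusted p = 0.0699, 0.0591 and 0.0735).

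Of 26 cell cycle genes, 4 were higher and 0 lower (15.4% called, against 2.78% of all genes). Beside Wee1 these were Rrm2, a subunit of ribonucleotide reductase, at -0.02, -0.25 and -0.18 against 0.33, 0.61 and 0.27 (1.47-fold, adjusted p = 0.000422), and the cyclin E genes Ccne1 (1.39-fold, adjusted p = 0.00658) and Ccne2 (1.29-fold, adjusted p = 0.0190). Ccne1 lost its call without CT12 replicate 1 (adjusted p = 0.0534), and Ccne2 without CT06 replicate 1 or 2 or CT12 replicate 1 or 3 (adjusted p = 0.0799, 0.0981, 0.114 and 0.0933). In xenobiotic metabolism 3 of 23 were higher and 0 lower (13% called). Abcb1a, a drug efflux pump, went from -0.11, -0.17 and 0.03 to 0.62, 0.40 and 0.68 (1.57-fold, adjusted p = 0.000313), and the genes of the drug receptors CAR and PXR, Nr1i3 and Nr1i2, rose 1.44-fold and 1.38-fold (adjusted p = 0.00784 and 0.0175). Nr1i3 lost its call without CT06 replicate 2 or CT12 replicate 3 (adjusted p = 0.0645 and 0.0556), and Nr1i2 without CT06 replicate 1 or 2 or CT12 replicate 2 or 3 (adjusted p = 0.0863, 0.0881, 0.0570 and 0.0933).

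The remaining lists with any call had 1 each, apart from autophagy and lysosome with 3 (14.3% called). A single call made up 4% to 7.1% of each of these lists, against 2.78% of all genes, so these counts rest on 1 gene each. Sqstm1, an autophagy receptor, fell from 0.20, 0.17 and 0.18 to -0.19, -0.27 and -0.08 (1.29-fold lower, adjusted p = 0.000429). Of 21 autophagy and lysosome genes, Ctsl (1.20-fold lower, adjusted p = 0.0301) and Bnip3 (1.39-fold higher, adjusted p = 0.0309) were also called. Ctsl lost its call without CT06 replicate 1 or 3 or CT12 replicate 2 or 3 (adjusted p = 0.106 to 0.167) and Bnip3 without any 1 array but CT06 replicate 3 (adjusted p = 0.0667 to 0.180). Stat5b, which carries the growth hormone signal, fell from 0.23, 0.21 and 0.33 to -0.19, -0.33 and -0.12 (1.39-fold lower, adjusted p = 0.00202; 1 of 15). Klf13 rose 1.31-fold (adjusted p = 0.00465; 1 of 18 nuclear receptors and Kruppel-like factors), and Steap4 rose 1.31-fold (adjusted p = 0.00662; 1 of 18 secreted and acute phase genes). The Steap4 call was lost without CT12 replicate 1 (adjusted p = 0.0574). Of 25 proteasome genes, Psmd11 was called (4%, near the 2.78% of all genes), 1.26-fold lower (adjusted p = 0.0218), and its call was lost without CT06 replicate 1 or 2 or CT12 replicate 2 or 3 (adjusted p = 0.0675 to 0.132). Sfpq was also the 1 called of 14 cold-inducible and splicing genes, where Cirbp and Rbm3, both induced by mild cold, had differences of -0.32 and 0.41 (adjusted p = 0.194 and 0.186).

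**Figure D4:**
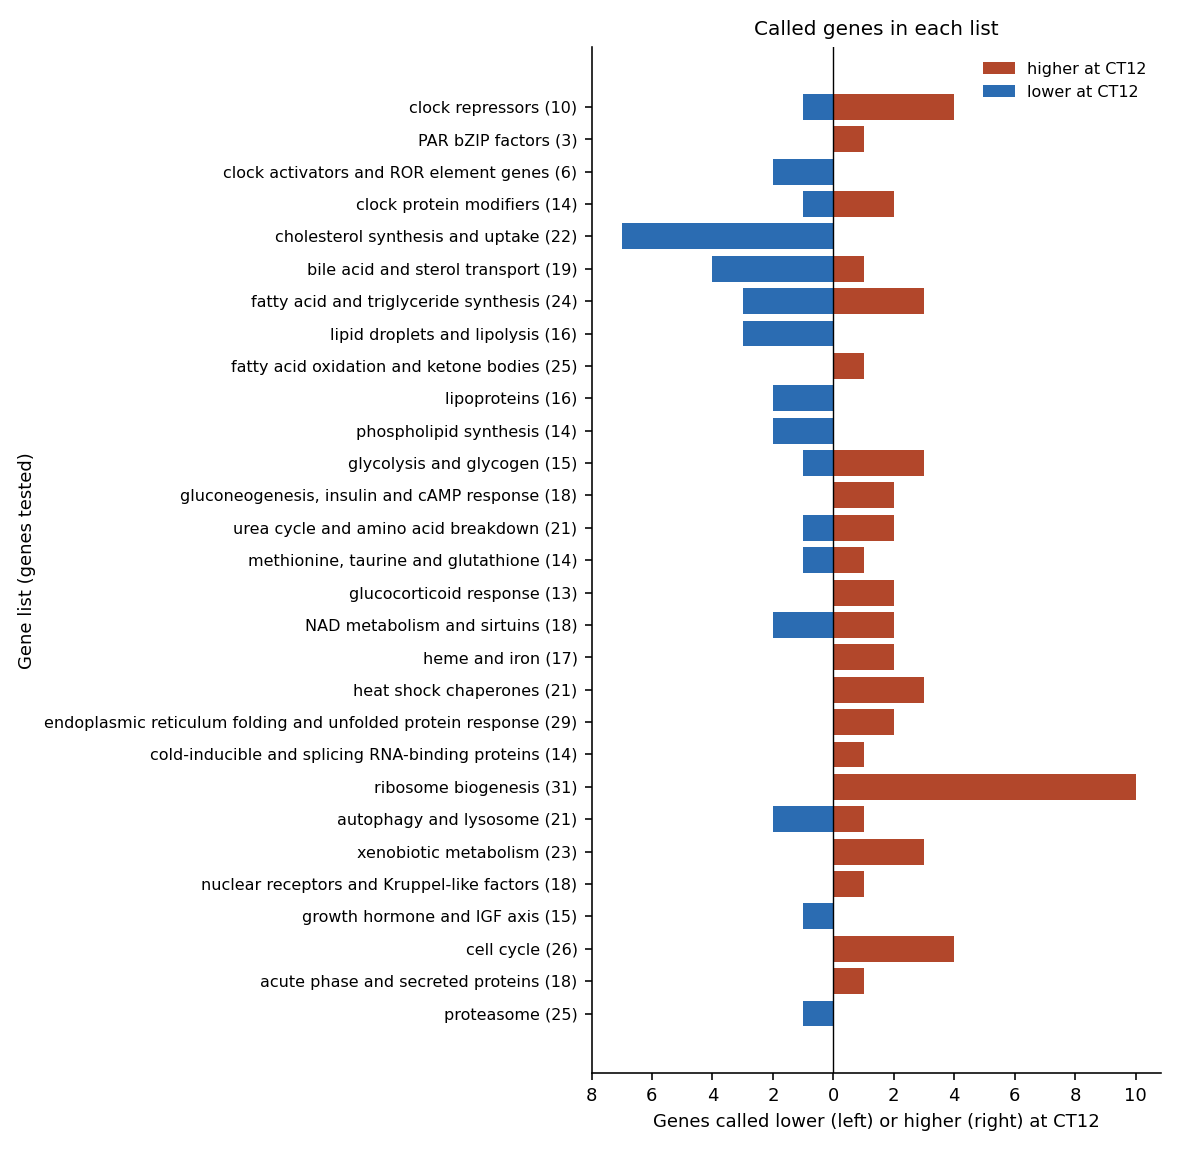
Number of genes called lower (blue, left) and higher (red, right) at CT12 against CT06 (x axis) in each gene list with at least 1 call (y axis, with the number of genes tested in parentheses). Ribosome biogenesis has 10 higher genes and cholesterol synthesis and uptake 7 lower genes, and each other list has at most 6 calls.

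No gene was called by limma in 4 lists: ribosomal proteins (12 tested), immediate early and stress genes (20), the respiratory chain (21) and reference genes (9). With 2.78% of all genes called, no call in lists of this size is near that share. The differences of the respiratory chain genes lay between -0.12 and 0.14 and those of the reference genes between -0.15 and 0.12. Markers of other cell types were compared too, because in whole liver fewer cells of a type and less RNA per cell cannot be told apart. Over the markers of all 11 lists, 1 gene was called, a smaller share than the 2.78% of all genes. It was Pdgfrb, a receptor of stellate cells and 1 of 10 stellate cell and fibroblast markers. Pdgfrb read 0.06, 0.02 and 0.18 at CT06 and -0.19, -0.29 and -0.20 at CT12 (1.24-fold lower, adjusted p = 0.00492). Of the hepatocyte markers 6 of 8 were measured and 0 called, and the mean of these 6 ranged over the livers from 0.01 to 0.04 at CT06 and from 0.05 to 0.08 at CT12. The mean of 9 macrophage markers ranged more widely, from -0.32 to 0.17 at CT06 and from -0.28 to 0.05 at CT12, and the ranges overlapped. Because the values are centred on each gene, whether a marker is absent could not be read from them.

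The 3 livers of CT09 showed how far the change had gone by the middle of the interval. Their values are not part of the CT12 minus CT06 difference, but they entered the estimate of the spread by which genes were called. The mean at CT09 lay between those of CT06 and CT12 in 229 of the 247 genes called higher (92.7%) and in 262 of the 307 called lower (85.3%), against 27.8% of all genes tested. Called genes have a wide gap between CT06 and CT12, which by itself makes a value in between more likely. At CT09 the median gene had covered 67.4% of its fall or 42.1% of its rise, and 239 of the 307 falling but 93 of the 247 rising genes were past the midpoint. In both sets CT09 thus lay mostly below the midpoint. Over all genes, the median difference of CT09 from the mean of CT06 and CT12 was 0.01 (log2). Whether the falls ran earlier or the 3 CT09 livers shared a downward shift in the called genes was not tested. These shares are descriptions, since genes of one liver vary together. Genes already up at CT09 included Ciart, at 1.61, 1.57 and 1.35, Usp2, at 1.03, 0.82 and 1.11, and Tef, at 0.49, 0.55 and 0.71, all overlapping their CT12 values. Rising genes still low at CT09 included Ppp1r3b, at -1.01, -1.11 and -0.51, and Lonrf3, at -0.74, -0.82 and -0.48 with CT12 values of -0.06 to 0.00. Arntl, at -1.52, -1.78 and -1.59, and Cldn1, at -1.24, -1.15 and -0.90, were already low at CT09, whereas Nr1d1, at 1.39, 1.36 and 1.49, and Pim1, at 0.66, 0.71 and 0.40, were still high.

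Departure of CT09 from the line between CT06 and CT12 was tested by the contrast of CT09 against the mean of both ends. By limma 1 gene (0.00502%) passed at an adjusted p under 0.05, and 2912 had an unadjusted p under 0.05. The gene was Clpx, whose CT09 values of -0.93, -1.06 and -0.89 lay within its CT12 range, a difference of -0.53 from the mean of both ends (log2). The count was 0 without CT09 replicate 2, 38 without CT09 replicate 3 and 1 or 2 without any other array of the 3 times. A difference in timing between genes was not shown gene by gene at this number of arrays.

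Over the 24 h of the series, most called genes had their extreme near the end of the interval. The highest of the 8 time means was at CT12 for 155 and at CT15 for 69 of the 247 higher genes, and the lowest was at CT12 for 165 and at CT15 for 64 of the 307 lower genes. The other extreme lay before CT06 for many: 124 of the higher genes were lowest at CT03 and 56 at CT06, and 134 of the lower genes were highest at CT03 and 110 at CT06. That one extreme falls at CT06 or CT12 is partly fixed by the choice of genes called between these times.

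A wave of 24 h that is symmetric would give the step from CT18 to CT00 the same size and the opposite sign as the step from CT06 to CT12, with 6 other arrays. By limma the step CT00 minus CT18 was called for 211 of all genes (1.06%). It was opposite in sign in 202 of the 247 higher genes (81.8%) and 262 of the 307 lower genes (85.3%), against 51.2% of all genes. It was also called in 88 of the 554: 32 higher and 55 lower genes had the opposite sign, and 0 and 1 the same sign. The return step was close in size to the first in Hmgcs1 (-1.15 and 0.99) and Rnf125 (-1.18 and 1.19). In Thrsp (0.91 and -1.19) and Per2 (0.78 and -1.05) it was larger in size. In Lpin1 (1.94 and -0.72) and Pfkfb3 (1.77 and -0.56) it was smaller and not called (adjusted p = 0.211 and 0.208). The medians of the first and the return step were 0.46 and -0.15 in the higher genes and -0.41 and 0.15 in the lower genes. The genes were chosen by their first step, so a smaller return step is partly a product of that choice.

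The sum of both steps, which is 0 for a symmetric wave, was tested in the same fit and called for 25 genes (0.125%), with 1800 at an unadjusted p under 0.05. Of these, 8 sums were positive and 17 negative. Coq8a had steps of -1.17 and 0.39 and a sum of -0.78 (adjusted p = 7.21e-05). Coq10b had steps of 1.21 and -0.18 and a sum of 1.04 (adjusted p = 0.00585), and Cldn1 steps of -1.36 and 0.37 and a sum of -0.99 (adjusted p = 0.00948). These 3 were called in each of the 12 fits that left out an array of the 4 times. The other large sums were those of Ciart (1.74), Usp2 (0.92), Nampt (0.90), Lonrf3 (0.81) and Abcb1a (0.79), and of Acacb (-1.01), Hspa4l (-0.85), Hjv (-0.80) and 2610528J11Rik (-0.79), with adjusted p from 0.0261 to 0.0488. Each of these 9 lost its call without CT06 replicate 2 (adjusted p = 0.111 to 0.175), CT12 replicate 1 (0.0539 to 0.0976) or 3 (0.0754 to 0.0945), CT00 replicate 2 (0.0586 to 0.125) or 3 (0.0687 to 0.156), or CT18 replicate 1 (0.0567 to 0.118). The count of 25 ranged from 5 without CT12 replicate 3 to 29 without CT06 replicate 1. Ciart was low at both later times, with means of -0.59 at CT18 and -0.47 at CT00. Hspa4l, a chaperone gene, had a difference of -0.11 between CT06 and CT12 (adjusted p = 0.827) and was 0.74 at CT18 and 0.01 at CT00 (adjusted p of that step 0.000504).

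**Figure D5:**
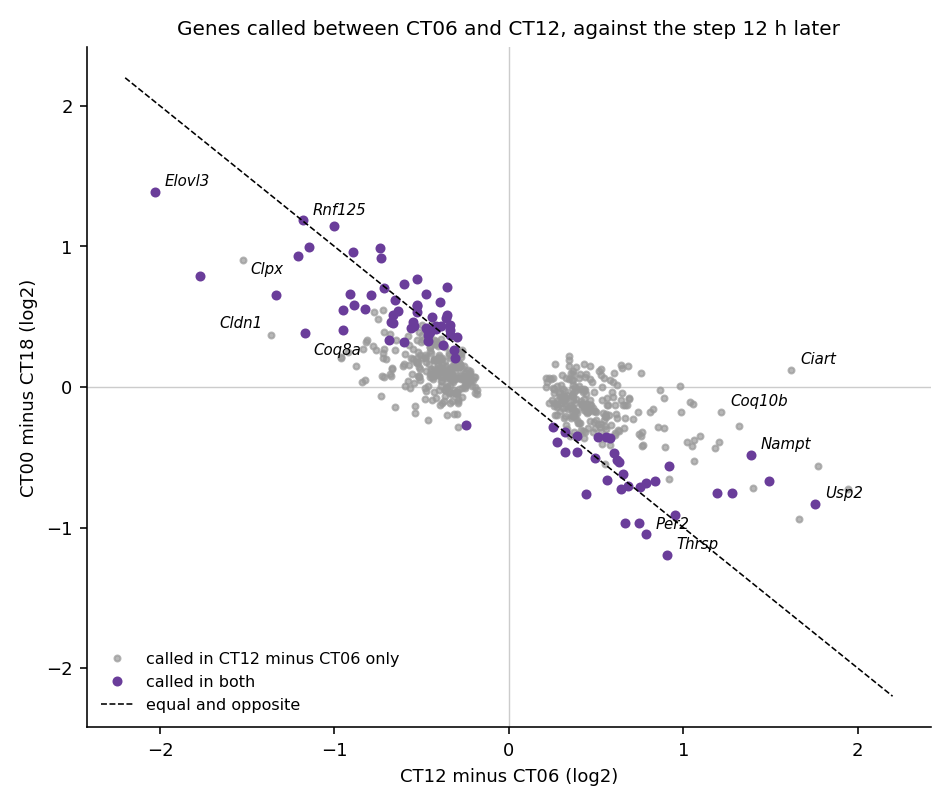
CT00 minus CT18 (y axis, log2) against CT12 minus CT06 (x axis, log2) for the 554 genes called in the latter, with 3 arrays per time; purple points are the 88 genes called in both steps, grey points the others, and the dashed line marks steps of equal size and opposite sign. Most points lie in the upper left and lower right, and many with a large CT12 minus CT06 difference, such as Ciart and Cldn1, lie nearer to 0 on the y axis than the line. Because the genes were chosen by the x axis, a smaller size on the y axis is partly a product of that choice.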

How the data were processed

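The authors deposited 1 value per probe set and array, treated here as log2 values (the log base is not given in the sources used here, so folds hold for base 2) and centred on the median of each probe set over the 24 arrays. How the authors corrected background, summarised and normalized is not given in the sources used here. Of 28815 probe sets, 21780 had 1 gene symbol in the platform annotation, 1605 several and 5430 were not listed, and those with 1 symbol were averaged per gene (19935 genes, 998 with several probe sets). Symbols were updated through the RefSeq table (21689 found, 0 changed). Time means were fitted with limma 3.58.1 in R 4.3.3 to all 24 arrays, with 16 residual degrees of freedom, and contrasts were tested with empirical Bayes moderation and Benjamini-Hochberg adjustment at 0.05. No filter on dim genes was applied in the main fit, since the values are centred. The upper class of rounding steps, 2349 genes with higher values before centring, was fitted apart as an alternative. For arrays the number of livers limits the precision. On simulated data of 19935 genes, the CT12 minus CT06 test found 38% of 100 genes with a difference of 0.3 and 88% of 100 with 0.6, with 13 false calls. This was a single run with normal noise drawn independently for each gene and array. It does not cover deviations that the genes of one liver share.

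The genes, lists and tests were chosen with earlier results of these data known, so the lists give no independent support and were described by counts and medians only. The lists differ in their share of upper class genes and were not compared with genes of like signal. Named genes are the 15 largest rises and falls among called genes, all tested members of 3 clock lists, the 4 smallest p in every other list, and the 6 largest positive and negative called values in each of 2 further contrasts. Called list members beyond these, and Pdgfrb, were named because counts were small, after their values were seen. Replicate numbers did not pair CT06 with CT12, and the labels give them no meaning. Alternatives covered the arrays in the fit, moderation, weights, normalization, probe sets, rounding-step class, a replicate block and single arrays left out.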

Additional observations from a re-analysis of the deposited data

How the results depend on the processing

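The counts of genes called higher and lower at CT12, 247 and 307, kept within 1.5 times under robust moderation, quantile normalization, array medians set to 0, the first or every probe set, and the replicate block. They were 168 and 200 with only the 6 arrays of CT06 and CT12 in the fit, 153 and 234 without moderation, 477 and 547 with array weights, 91 and 159 in the 2349 genes of the upper class of rounding steps (fewer genes tested), and 79 and 62 at 1.5-fold or more. In the fits that kept the gene table, no call shared with the 554 changed sign (0). Of the 102 called genes named here for CT12 minus CT06, 32 lost their call with only the 6 arrays, 21 without moderation, 7 with quantile normalization, 3 with array medians set to 0 and 1 with robust moderation. Leaving out 1 array gave 104 to 219 and 169 to 238. The CT09 contrast, 1 gene, gave 55 with array weights, 0 with quantile normalization, 3 with array medians set to 0, 2 in the upper class, 0 at 1.5-fold or more, and 0 to 38 with 1 array left out. The sum of both steps, 25 genes, gave 9 without moderation, 220 with array weights and 5 to 29 with 1 array left out. Except where fewer genes or arrays were used, the cause of these shifts was not tested.

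With the replicate block the counts were 303 higher and 405 lower genes, 2 for CT09 and 43 for the sum of both steps. Samples of CT06 and CT12 with the same number did not deviate together (r = 0.06, -0.03 and 0.08 for replicates 1, 2 and 3), so for this comparison the block rests on a shared number. All 3 same-numbered pairs were over 0.1 for CT06 with CT09 (0.13, 0.22 and 0.46) and CT00 with CT06 (0.17, 0.16 and 0.36), but not for CT09 or CT00 with CT12, nor for CT00 with CT18. What the numbers share was not tested. Of the 554 genes, 550 were called with it.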

Other observations

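Of the 5430 probe sets that the platform annotation does not list, 29 were called higher and 17 lower at CT12 in a fit of every probe set. They are unnamed here.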
